A study of Homo sapiens with 24 samples.

Results

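The collagen family is described here through H3K27ac, the acetylation of histone H3 at lysine 27, measured by ChIP-seq in a pair of human mammary epithelial cell lines with and without knockdown of ANCO1. A genomic region was taken as a collagen region when its annotation named a gene whose symbol is COL, digits, A and digits, either across the region or beside it within 10000 bases, with COL7A1 and COL17A1 left out. This gave 310 of 171345 regions over the 6 deposited tables. The tables of shANCO1 against shCTRL hold 115 collagen regions of 50284 in 10A and 86 of 44790 in DCIS, and they give the change in H3K27ac. The tables of H3K27ac against input hold 47 collagen regions of 28607 in 10A shANCO1, 16 of 15490 in 10A shCTRL, 26 of 16692 in DCIS shANCO1 and 20 of 15482 in DCIS shCTRL, and they show where the mark stands above input DNA.

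MCF10A (10A) is an immortalized, non-tumorigenic breast epithelial line, and MCFDCIS (DCIS) is a relative of it that models ductal carcinoma in situ. Both lack estrogen and progesterone receptors, and both were grown in the same medium with horse serum, EGF, hydrocortisone, insulin and cholera toxin. Each was infected with lentivirus carrying a hairpin against ANCO1 (shANCO1) or a control hairpin (shCTRL, labelled shGFP in the tables) and selected with puromycin, and whether a line is 1 clone is not given in the sources used here. For every line and hairpin there are 3 H3K27ac libraries and 3 input libraries, which makes 24 in 8 groups. Nothing states that the 3 libraries of a group came from separate cultures, the tables hold no value per library, and the depth behind each value is unknown, so replicate spread enters only through the deposited false discovery rate (FDR). The knockdown of ANCO1 itself was not analysed here.

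Collagens are secreted or membrane-bound proteins of the extracellular matrix in which several alpha chains wind into a helix. Fibrillar collagens form the fibres of connective tissue, type IV collagen forms the sheet under an epithelium, and the remaining classes build networks, bridge fibrils or sit in the cell membrane. H3K27ac marks active promoters and enhancers, so its level at a collagen gene describes the state of the gene's control elements and not the amount of its RNA or protein.

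Stretches of genome sequence are shown because the largest changes of each line and direction, and the promoter that COL4A1 and COL4A2 share, lie on them. Each is the middle 200 bases of a region, read from hg38 on the plus strand, 5′ to 3′, in lower case with AP-1 motifs (TGACTCA or its reverse complement TGAGTCA) or TEAD motifs (GGAATG or its reverse complement CATTCC) in capitals. No collagen region fell in 10A, so none is shown for that direction.
COL8A1 intron, region with the largest rise in 10A, chr3:99752001-99752200: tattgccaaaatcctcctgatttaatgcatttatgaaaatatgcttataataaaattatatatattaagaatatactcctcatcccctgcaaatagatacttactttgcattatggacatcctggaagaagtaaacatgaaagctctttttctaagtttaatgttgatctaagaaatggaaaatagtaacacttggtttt
COL8A1 intron, region with the largest rise in DCIS, chr3:99751801-99752000: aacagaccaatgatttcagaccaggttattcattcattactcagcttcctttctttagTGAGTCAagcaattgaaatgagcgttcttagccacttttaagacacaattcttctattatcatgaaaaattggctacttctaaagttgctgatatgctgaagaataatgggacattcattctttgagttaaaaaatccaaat
COL23A1 intron, region with the largest fall in DCIS, chr5:178429551-178429750: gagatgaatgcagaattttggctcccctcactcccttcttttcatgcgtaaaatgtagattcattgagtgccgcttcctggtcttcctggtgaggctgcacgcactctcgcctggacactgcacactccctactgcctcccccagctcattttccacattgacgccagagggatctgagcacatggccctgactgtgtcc
COL4A1 and COL4A2 shared promoter, region that rose in 10A, chr13:110307551-110307750: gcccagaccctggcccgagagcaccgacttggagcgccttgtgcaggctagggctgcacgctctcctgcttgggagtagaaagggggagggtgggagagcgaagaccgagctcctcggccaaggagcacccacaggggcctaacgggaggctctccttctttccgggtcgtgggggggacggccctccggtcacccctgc
The first and second windows are neighbours within the same intronic element. The second holds 1 AP-1 motif, at 99751859 to 99751865 on chromosome 3, and the other 3 windows hold neither motif. The full 10A COL8A1 region spans that site too and holds 1 AP-1 match. The full COL23A1 region also holds 1 AP-1 match, and the full shared promoter region holds neither motif. Over all regions of the 10A table, 7.64% of middle windows held an AP-1 motif and 12.5% a TEAD motif, against 3.48% and 16.5% of the 115 collagen regions. In the DCIS table the shares were 6.33% and 12% over all regions and 6.98% and 19.8% over the 86 collagen regions. A match is a string of letters and no measured binding site.

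In 10A the collagen regions moved upward with the rest of the genome. Of the 115 regions, 49 (42.6%) rose in shANCO1 at an FDR under 0.05, beside 43.6% of all regions. None fell, beside 0.225% of all regions, in the deposited csaw test, and at an unadjusted p under 0.05 the number of collagen regions that were lower was also 0. The median log2 fold change was 0.79 for the collagen regions and 0.76 for all regions, and 107 of the 115 were above 0. The whole table is shifted upward, and only 2 of the 49 collagen regions that rose stood at least 1 log2 unit above its median (COL8A1 and COL27A1, both intronic). The 49 regions lay at 21 of the 25 collagen genes with a region in 10A.

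In DCIS the share of collagen regions that rose was again close to that of the genome, and the values spread more widely in both directions, as did those of the whole table (-7.39 to 7.80, against -1.65 to 3.76 in 10A). Of the 86 regions, 20 (23.3%) rose, beside 23.6% of all regions, and 7 (8.14%) fell, beside 4.86% of all regions. The median was 0.35 for the collagen regions and 0.52 for all regions, and the values ran from -2.91 to 5.10, against -0.70 to 1.78 in 10A. Among regions enriched in either group the median was 0.98 for the 25 collagen regions and 0.56 for all such regions. Of the 25, 80% overlapped a region enriched in shANCO1 and 60% one enriched in shCTRL, beside 84.9% and 75.5% of all such regions. The same libraries choose this subset and give its fold change, so its median cannot tell whether collagen regions differ from the rest. The collagen median was 0.69 with at least 5 windows and 0.60 over genes. Of the 26 collagen genes with a region in DCIS, 14 had a region that rose and 4 had a region that fell, and no gene had both. The 7 regions that fell belong to COL14A1 (4 regions), COL23A1, COL28A1 and COL9A3. COL14A1 alone gave 12 of the 86 regions, all below 0, with a median of -1.15. The collagen median and the share that fell were not computed without it.

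**Figure D1:**
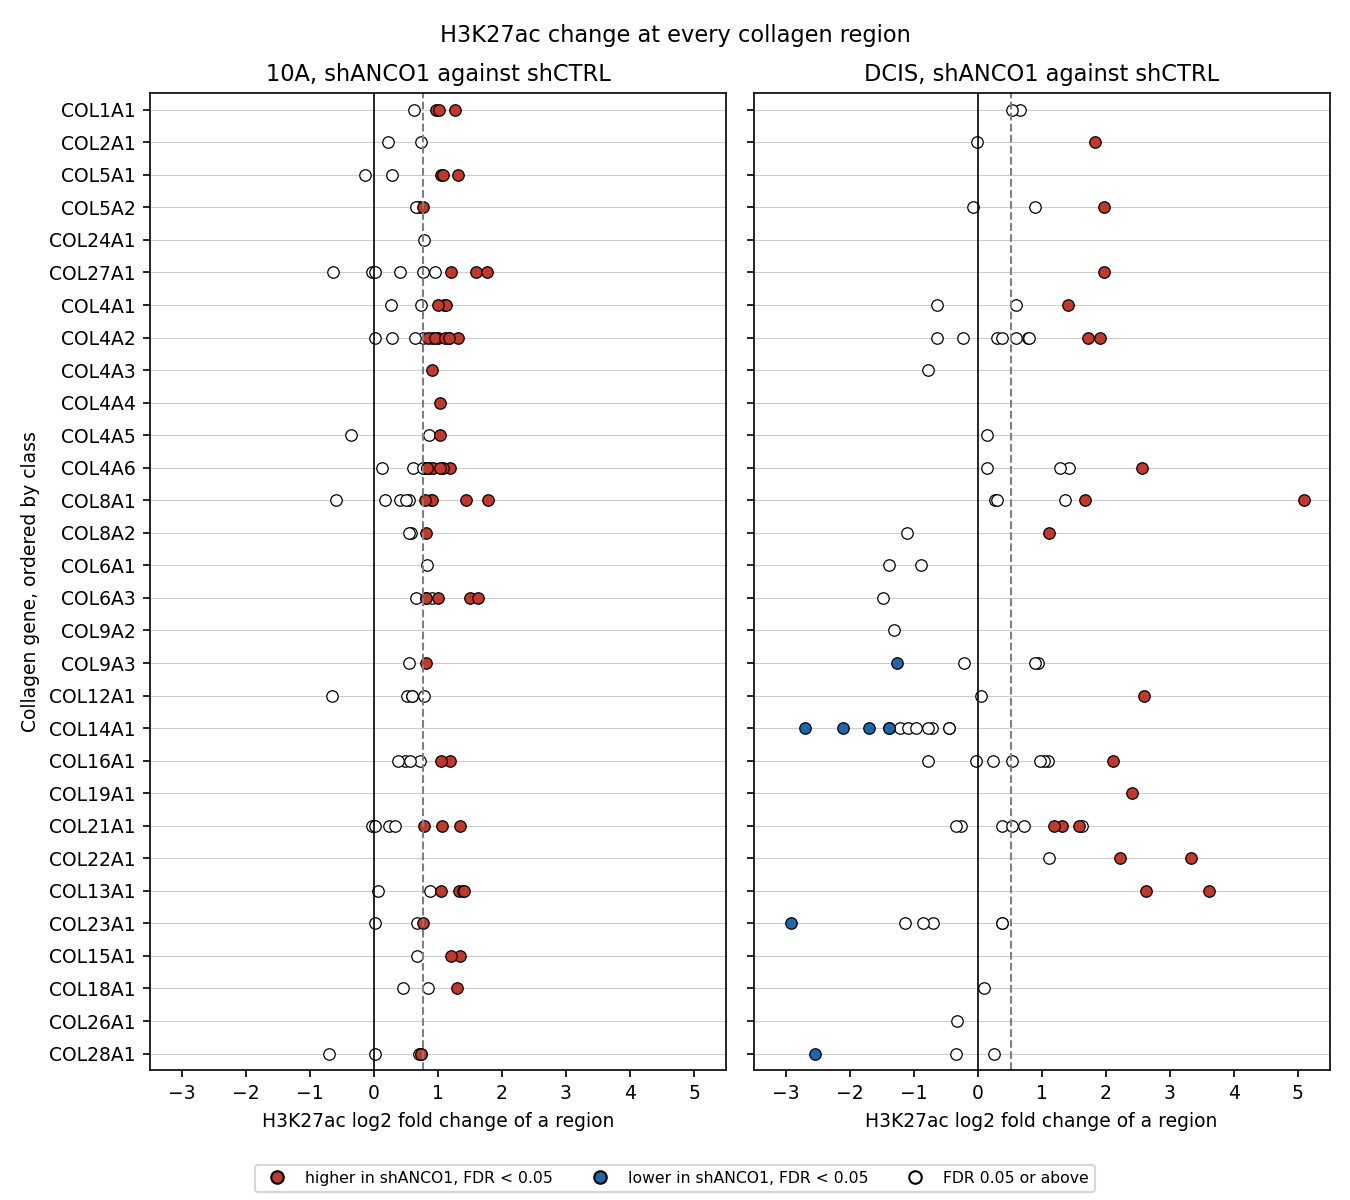
Deposited log2 fold change of H3K27ac, shANCO1 against shCTRL, at every collagen region (horizontal axis, log2 units) by gene (vertical axis, ordered by class), with 10A on the left and DCIS on the right. Each circle is a region, red where it rose and blue where it fell at an FDR under 0.05, and the dashed line is the median of all regions of the table (0.76 in 10A and 0.52 in DCIS). The 10A values lie between -0.70 and 1.78 and the DCIS values between -2.91 and 5.10.

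GENCODE release 44 lists 42 collagen genes under the rule. A region was tested in both lines at 21 of them, in 10A alone at 4 (COL15A1, COL24A1, COL4A4 and COL5A1) and in DCIS alone at 5 (COL14A1, COL19A1, COL22A1, COL26A1 and COL9A2). The other 12 had no region in either table: COL10A1, COL11A1, COL11A2, COL1A2, COL20A1, COL25A1, COL3A1, COL5A3, COL6A2, COL6A5, COL6A6 and COL9A1. COL3A1 and COL1A2, which encode chains of the main interstitial fibrils, are among these.

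H3K27ac above input was found at or beside 18 collagen genes in 10A shANCO1 and 9 in 10A shCTRL, and all 9 of the latter were among the 18. The 9 genes with an enriched region in shANCO1 alone were COL18A1, COL1A1, COL23A1, COL24A1, COL27A1, COL4A1, COL4A5, COL5A1 and COL8A2. In DCIS the mark was found at or beside 13 genes in shANCO1 and 9 in shCTRL, with 6 in both. By annotation, the genes with an enriched region in DCIS shANCO1 alone were COL13A1, COL1A1, COL4A2, COL4A3, COL4A6, COL5A2 and COL8A2. Those in DCIS shCTRL alone were COL14A1, COL28A1 and COL6A3. By position COL4A3 is not a case of shANCO1 alone. Its only region tested in DCIS overlapped an enriched region in each group, and the shCTRL one carries no COL4A3 entry. The listing of COL6A3 under shCTRL alone rests on a region inside the gene. DCIS regions that overlap upstream regions counted as COL6A3 in 10A carry no COL6A3 entry, and they rose in the direct comparison. Whether these upstream regions were enriched over input in either DCIS group was not counted. COL16A1, COL21A1 and COL8A1 were enriched in all 4 groups. Every enriched region of COL1A1, COL8A2, COL23A1 and COL4A3 lies beside the gene. These regions are at the promoters of SGCA or LINC01969, of ADPRS and TEKT2, of PHYKPL and of MFF. The region at the COL1A1 5′ end overlapped no enriched region in any group. The numbers of enriched regions in the whole tables differ in the same order in 10A (28607 and 15490) and in DCIS (16692 and 15480). The share of all genes with an enriched region in 1 group or in both was not counted beside these genes. An enriched region in 1 group alone is no test of a difference between groups.

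Read against the direct comparison, 38 of the 115 regions in 10A (33%) overlapped a region enriched in shANCO1, where 45.2% of all regions did, and 15 (13%) overlapped one enriched in shCTRL, where 23.5% of all did. In DCIS the numbers were 20 of 86 (23.3%, beside 30.3% of all regions) for shANCO1 and 15 of 86 (17.4%, beside 27% of all regions) for shCTRL. The collagen regions were thus below the shares of the whole table in each of the 4 groups. Where they were enriched, the median log2 over input was 3.52 in 10A shANCO1 (3.40 for all enriched regions), 3.43 in 10A shCTRL (3.32), 4.56 in DCIS shANCO1 (4.47) and 5.02 in DCIS shCTRL (4.09). The collagen median was the higher of the pair in each group, with the widest gap in DCIS shCTRL. That value rests on 20 regions at or beside 9 genes, with 5 of the regions at COL8A1 and 4 at COL21A1.

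**Figure D2:**
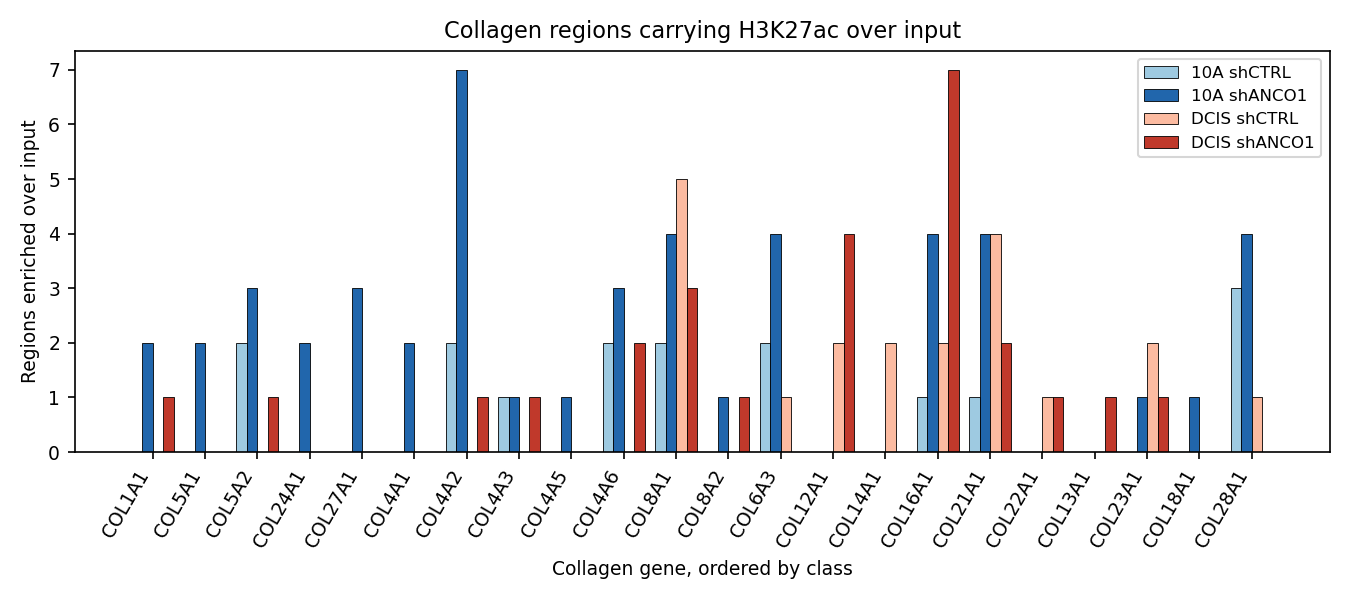
Number of regions enriched over input (vertical axis) at or beside each collagen gene with any (horizontal axis, ordered by class) in 10A shCTRL, 10A shANCO1, DCIS shCTRL and DCIS shANCO1. COL4A2 has 7 in 10A shANCO1 and 2 in 10A shCTRL, COL16A1 has 7 in DCIS shANCO1 and 2 in DCIS shCTRL, and COL14A1 has 2 in DCIS shCTRL and none in the other groups.

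The share of collagen regions that rose was higher at promoters in 10A and higher away from them in DCIS. In 10A, 24 of 50 collagen regions annotated to a promoter of any gene rose (48%, beside 50.8% of all promoter regions), as did 25 of 65 elsewhere (38.5%, beside 37.2% of all such regions). In DCIS it was 6 of 42 at a promoter (14.3%, beside 16.3%) and 14 of 44 elsewhere (31.8%, beside 31.3%). The whole tables have the same order in each line. Some collagen regions sit at the promoter of a neighbouring gene, 18 in 10A and 12 in DCIS, and of these 10 and 2 rose.

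The largest rise of the family in either line was at an intronic element of COL8A1, which encodes a chain of type VIII collagen, a short-chain collagen that forms networks in basement membranes and vessel walls. In DCIS the region on chromosome 3 from 99751101 to 99752700 (1600 bases) had a log2 fold change of 5.10 with 12 of 12 windows up at an FDR of 3.46e-09. In 10A the overlapping region from 99750801 to 99753400 (2600 bases) had 1.78 with 18 of 23 windows up at an FDR of 0.000396. It lies in an intron, 112207 bases into the gene in 10A, and the printed windows come from it.

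The input tables show the same element as enriched in 3 of the 4 groups. In 10A shANCO1 it stood 5.80 log2 units over input across 1500 bases, and in 10A shCTRL 4.66 in a single window of 200 bases. DCIS shANCO1 had 6.94 over 300 bases, and DCIS shCTRL had no enriched region there. The COL8A1 promoter was enriched in all 4 groups, and it rose in 10A (0.80, FDR 0.000564) while the DCIS value was 0.27 with an FDR of 0.839. COL8A1 had 10 regions in 10A, of which 4 rose, and 5 in DCIS, of which 2 rose, the second from 99673101 to 99675900 (1.68, FDR 0.0122), where 10A gave -0.59 (FDR 0.544). Within 1 Mb around the gene, the median of the other regions was 0.79 in 10A (67 regions) and 1.13 in DCIS (55 regions).

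**Figure D3:**
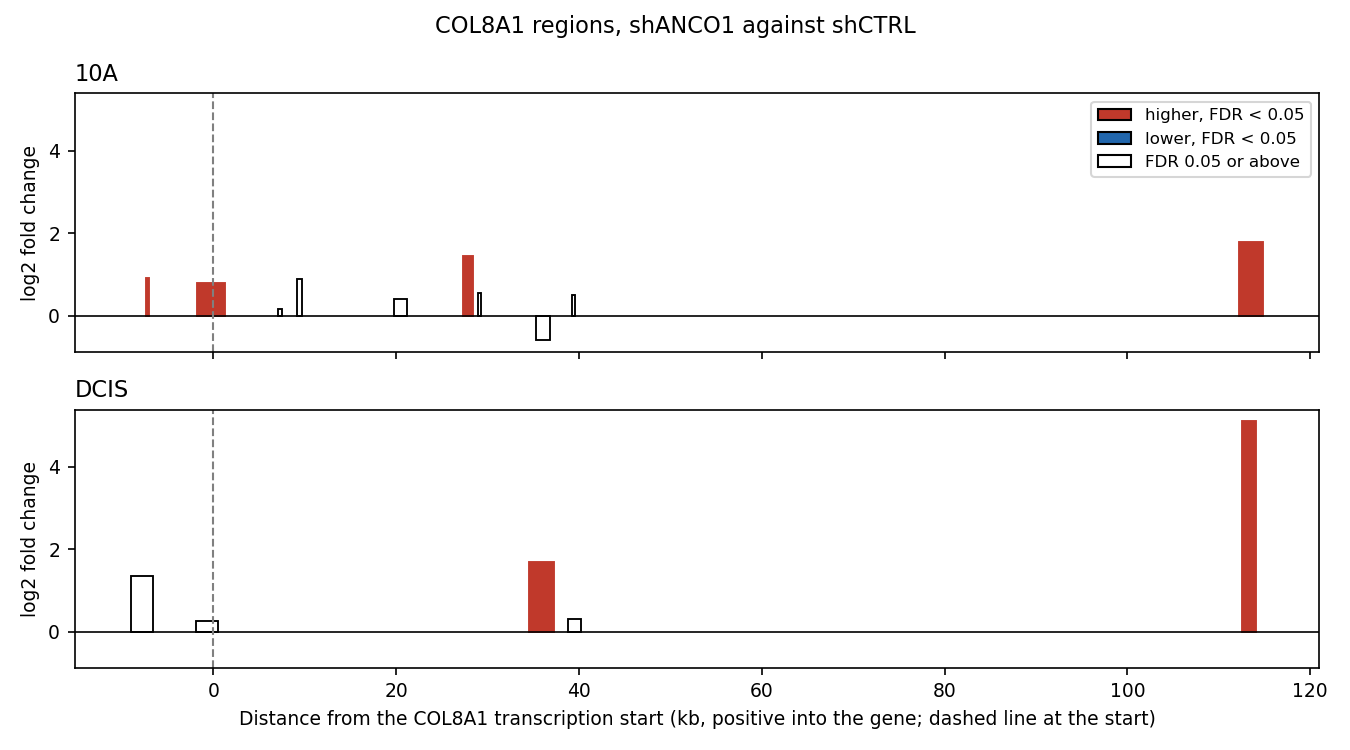
Log2 fold change of H3K27ac, shANCO1 against shCTRL (vertical axis), of each COL8A1 region against its distance from the transcription start (horizontal axis, kb), with bar width to scale, 10A above and DCIS below. Red bars have an FDR under 0.05. The intronic element at the right stands at 1.78 in 10A and 5.10 in DCIS, and the promoter region at 0 kb stands at 0.80 and 0.27.

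COL8A2, the other chain of type VIII collagen, had 1 region up of 3 in 10A (0.81, FDR 0.0465) and 1 up of 2 in DCIS (1.11, FDR 0.0482). Both are the same place beside the gene, at the promoters of ADPRS and TEKT2, so the annotation does not tie them to COL8A2 alone. The remaining gene of the class, COL10A1, had no region.

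All 6 type IV genes, which encode the chains of the basement membrane sheet, had a region that rose in 10A, and 3 of the 5 with a region did in DCIS. By region, 15 of 30 rose in 10A (50%, beside 43.6% of all regions) and 4 of 15 in DCIS (26.7%, beside 23.6%), so the shares lay near those of the whole tables. These genes stand in head-to-head pairs that share a promoter. The COL4A1 and COL4A2 promoter on chromosome 13 from 110306201 to 110309100 (2900 bases) rose in 10A with a log2 fold change of 1.00, 11 of 28 windows up at an FDR of 0.00261. In DCIS the regions there had 0.60 (FDR 0.399) and -0.64 (FDR 0.503). The promoter was enriched over input in 10A shANCO1 (3.60) and in none of the other groups.

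Regions in the introns of this pair rose as well. COL4A1 had 2 of 5 regions up in 10A, with the lowest FDR in an intron from 110258901 to 110260100 (1200 bases, 7 of 11 windows, 1.13, FDR 0.000273). Its 1 region up of 3 in DCIS (1.41, FDR 0.022) lies beside the gene at the promoter of LOC101927712. COL4A2 had 7 of 12 regions up in 10A and 2 of 9 in DCIS. An intronic region of COL4A2 from 110318901 to 110321300 rose in both lines, with 0.84 (FDR 0.00337) in 10A and 1.91 (17 of 17 windows, FDR 0.000208) in DCIS. That region was enriched in both 10A groups and in DCIS shANCO1 but not in DCIS shCTRL.

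On the X chromosome, the promoter shared by COL4A5 and COL4A6 rose in 10A from 108437901 to 108441400 (3500 bases, 14 of 30 windows, 1.03, FDR 0.000506), and in DCIS it had 0.14 with an FDR of 0.923. A domain in an intron of COL4A6 rose in both lines. From 108395301 to 108398700 the 10A value was 1.08 (7 of 33 windows, FDR 0.0108), and from 108395701 to 108398500 (2800 bases) the DCIS value was 2.57 (20 of 23 windows, FDR 0.000107). It was enriched in both groups of 10A, by up to 7.80 log2 units in shANCO1 and 5.43 in shCTRL, and in DCIS it was enriched in shANCO1 (7.0) and not in shCTRL. COL4A6 had 5 of 11 regions up in 10A and 1 of 4 in DCIS, and COL4A5 had 1 of 3 and 0 of 1.

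The third pair, COL4A3 and COL4A4, had no region at its shared promoter in either line. The 1 region listed for COL4A3 lies at the MFF promoter beside the gene (0.91, FDR 0.0366 in 10A, and -0.78, FDR 0.606 in DCIS), and that of COL4A4 is a 2-window region beside the gene in 10A (1.03, FDR 0.031).

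Among the fibrillar collagens, COL27A1 had the lowest FDR of the family in 10A. Its intronic region on chromosome 9 from 114225001 to 114226500 (1500 bases) had a log2 fold change of 1.77 with 14 of 14 windows up at an FDR of 4.79e-08, and it was enriched over input in 10A shANCO1 alone. No region was tested there in DCIS, where the only COL27A1 region, from 114288201 to 114288900 (700 bases) over a coding exon, rose by 1.97 (5 of 6 windows, FDR 8.62e-05). At that exon 10A gave 0.76 with an FDR of 0.0805. In all, COL27A1 had 3 of 9 regions up in 10A and 1 of 1 in DCIS.

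COL1A1, which encodes the main chain of type I collagen, had 3 of 4 regions up in 10A and 0 of 2 in DCIS. The region at its 5′ end, from 50199801 to 50201000 on chromosome 17, had 1.26 (FDR 0.00861) in 10A and 0.54 (FDR 0.815) in DCIS over the same bounds. That region is also annotated to the LINC01969 promoter, and it overlapped no region enriched over input in any group. The other COL1A1 regions that rose lie beside the gene, at the promoters of SGCA and LINC01969. COL5A1 and COL5A2 encode type V chains that regulate fibril assembly. COL5A1 had 3 of 5 regions up in 10A, the best with 1.32 (FDR 0.00557), and no region in DCIS. COL5A2 had 1 of 3 up in each line, at different places, with 0.76 (FDR 0.00926) in 10A and 1.97 (FDR 0.00116) in DCIS. COL2A1, the cartilage collagen, had a 1-window region up in DCIS (1.83, FDR 0.00266, 1 of 2 regions), while 10A gave 0.73 (FDR 0.0777).

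The FACIT collagens, which attach to the surface of fibrils, held the most regions in DCIS (40) and 5 of the 7 that fell. Of the 40, 12.5% fell (beside 4.86% of all regions) and 20% rose (beside 23.6%). COL14A1 held 12 of the 40 and 4 of the 5 that fell, and the shares of the class were not computed without it. COL14A1, which encodes the fibril-associated type XIV chain, had 12 regions in DCIS, all with a log2 fold change below 0, from -2.70 to -0.44. Of these, 4 fell at an FDR under 0.05. The strongest, on chromosome 8 from 120261801 to 120264700 (2900 bases, over a coding exon), had -2.70 with 22 of 26 windows down and an FDR of 4.11e-05. The others were -2.11 (FDR 0.0047), -1.69 (FDR 0.0147) and -1.38 (FDR 0.0329). COL14A1 was enriched over input in DCIS shCTRL, in 2 regions of 4.31 and 6.10 log2 units within the strongest region, and in no other group. Among the 38 other regions within 1 Mb, 4 rose, 7 fell and the median was -0.23. In 10A no COL14A1 region was tested.

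**Figure D4:**
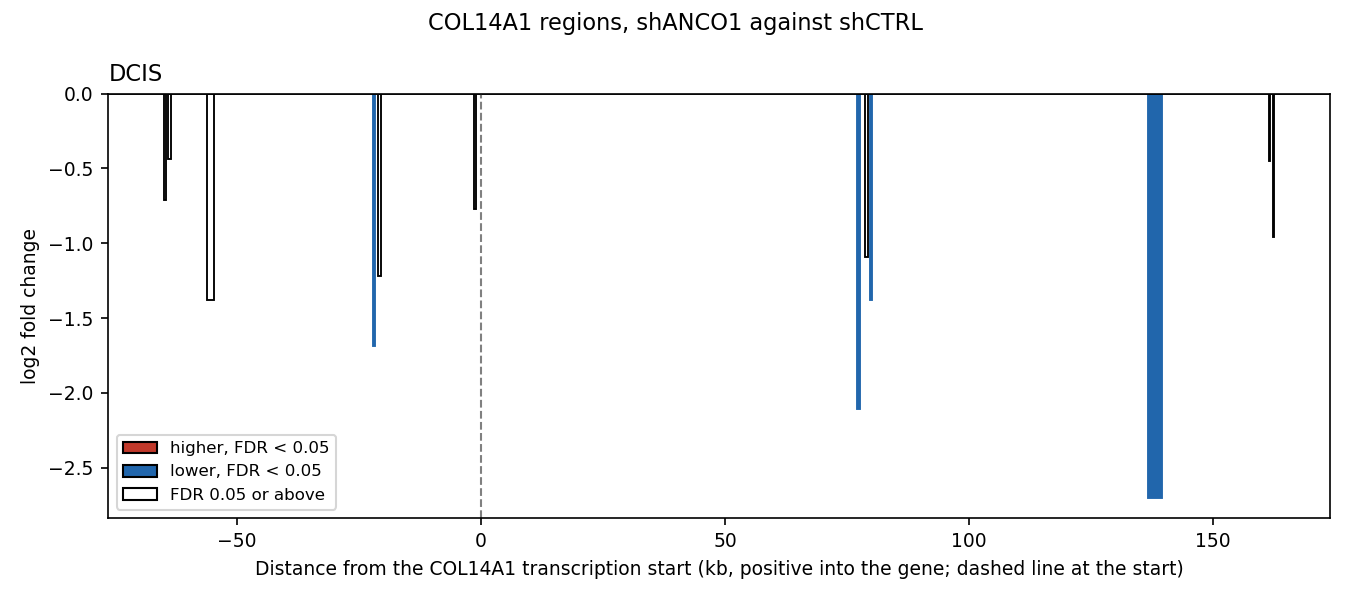
Log2 fold change of H3K27ac in DCIS, shANCO1 against shCTRL (vertical axis), of the 12 COL14A1 regions against their distance from the transcription start (horizontal axis, kb), with bar width to scale. Blue bars are the 4 regions with an FDR under 0.05, and every bar lies below 0, from -2.70 to -0.44.

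Other FACIT genes rose in DCIS. COL22A1, known from tissue junctions such as that of muscle and tendon, had 2 of 3 regions up, with 3.34 in an intron of chromosome 8 from 138792101 to 138792500 (400 bases, 3 of 3 windows, FDR 1.84e-06) and 2.22 from 138829901 to 138833100 (27 of 29 windows, FDR 3.34e-05). The second was enriched in both DCIS groups. COL12A1 had 2.60 (FDR 1.98e-05, 1 of 2 regions) from 75196801 to 75197000 and COL19A1 had 2.41 (FDR 0.000133, 1 of 1 region) from 69918301 to 69918500, both on chromosome 6 in introns, and each rests on 1 window of 200 bases. The COL12A1 promoter was enriched in both DCIS groups and gave 0.054 (FDR 0.997). In 10A, COL12A1 had 5 regions and none was called.

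COL16A1 and COL21A1, both fibril-associated, rose in both lines. COL16A1 had 2 of 6 regions up in 10A, the best on chromosome 1 from 31688501 to 31691000 (2500 bases, 15 of 24 windows, 1.05, FDR 0.000707), and 1 of 8 in DCIS, which overlaps it (2.12, FDR 0.000217). COL21A1 had 3 of 7 up in 10A, the best with 1.06 (FDR 0.00309), and 3 of 9 in DCIS, the best with 1.59 (FDR 0.00197), and no region of it was up in both. COL9A3, a cartilage collagen, had 1 of 2 regions up in 10A (0.82, FDR 0.0108), beside the gene at the OGFR promoter. In DCIS 1 of its 4 regions fell, on chromosome 20 from 62831701 to 62832500 (800 bases, 4 of 7 windows, -1.26, FDR 0.036).

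COL13A1 and COL23A1 encode collagens that span the cell membrane, and they moved in opposite directions in DCIS. For COL13A1 the intronic region on chromosome 10 from 69863501 to 69867400 (3900 bases) had the lowest FDR of the family, 9.6e-14, with a log2 fold change of 3.62 and 33 of 33 windows up. It was enriched in DCIS shANCO1 by 7.68 log2 units and in no other group. A second region next to it had 2.63 (FDR 1.23e-06), so both COL13A1 regions in DCIS rose. In 10A, 4 of 6 rose, 2 of them within the span of the large DCIS region (1.39, FDR 0.00317, and 1.41, FDR 0.00223), and the lowest FDR was at 69807401 to 69807900 (500 bases, 4 of 4 windows, 1.33, FDR 0.00147). The COL13A1 promoter in 10A had 0.062 with an FDR of 0.902.

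COL23A1 had 1 of 6 regions down in DCIS and none up. That region, on chromosome 5 from 178429301 to 178430000 (700 bases, intron), had -2.91 with 5 of 5 windows down and an FDR of 7.53e-05, and its middle is the third printed sequence. It overlapped no enriched region in either DCIS group. In 10A, 1 of 3 regions rose (0.77, FDR 0.029), at the PHYKPL promoter beside the gene.

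Of the multiplexins, collagens with interrupted helices found in basement membrane zones, COL15A1 had 2 of 3 regions up in 10A, the best on chromosome 9 from 99040101 to 99041300 (1200 bases, 9 of 9 windows, 1.35, FDR 0.00201), and no region in DCIS. COL18A1, the precursor of endostatin, had 1 of 3 up in 10A (1.30, FDR 0.00605), at the SLC19A1 promoter beside the gene, and a single region in DCIS with no call. COL28A1, a collagen known from peripheral nerve, had 1 of 5 regions up in 10A (0.73, FDR 0.0197). In DCIS 1 of its 3 regions fell, on chromosome 7 from 7489001 to 7490500 (1500 bases, over a coding exon, 3 of 12 windows, -2.54, FDR 0.000207), at a place enriched in DCIS shCTRL (7.01) and not in DCIS shANCO1. The overlapping region in 10A was enriched in both groups and gave 0.71 with an FDR of 0.634.

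For type VI collagen, which forms beaded filaments around cells, the calls depend on the annotation. COL6A3 had 4 of 7 regions up in 10A, the best on chromosome 2 from 237429501 to 237433100 (3600 bases, 32 of 33 windows, 1.00, FDR 2.21e-05). These lie upstream of the canonical start, outside the gene as GENCODE draws it, and the region inside it had 0.65 (FDR 0.138). In DCIS the overlapping regions carry no COL6A3 entry and are not counted above, although they rose, with 3.0 (FDR 1.07e-05) and 1.41 (FDR 0.0161). The region inside COL6A3 in DCIS had -1.48 (FDR 0.0617). COL6A1 had 1 region in 10A and 2 in DCIS and no call.

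Genes without any call were, in 10A, COL12A1 (5 regions), COL24A1 (1), COL2A1 (2) and COL6A1 (1). In DCIS they were COL18A1 (1 region), COL1A1 (2), COL26A1 (1), COL4A3 (1), COL4A5 (1), COL6A1 (2), COL6A3 (1) and COL9A2 (1).

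The lines were also set side by side region by region. Of the 115 regions in 10A, 47 (40.9%) overlapped a region tested in DCIS, beside 58.2% of all 10A regions. Among the 47, 10 rose in both lines (21.3%, beside 16.3% of all overlapping regions), 14 rose in 10A with no call in DCIS (29.8%, beside 34.6% for those not up in DCIS), 8 rose in DCIS with no call in 10A (17%, beside 12.9% for those not up in 10A), 1 fell in DCIS with no call in 10A (COL28A1) and 14 had no call in either. None was called in opposite directions. The 10 that rose in both lie at 7 genes: COL13A1, COL16A1, COL4A2, COL4A6, COL6A3, COL8A1 and COL8A2. The COL6A3 pairs use DCIS regions that carry no collagen entry, and the COL13A1 pairs share a single DCIS region. The difference between the lines was not tested, because the tables hold no counts per library. Of the 68 regions in 10A with no counterpart in DCIS, 25 rose (36.8%, beside 33.3% of all such regions).

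**Figure D5:**
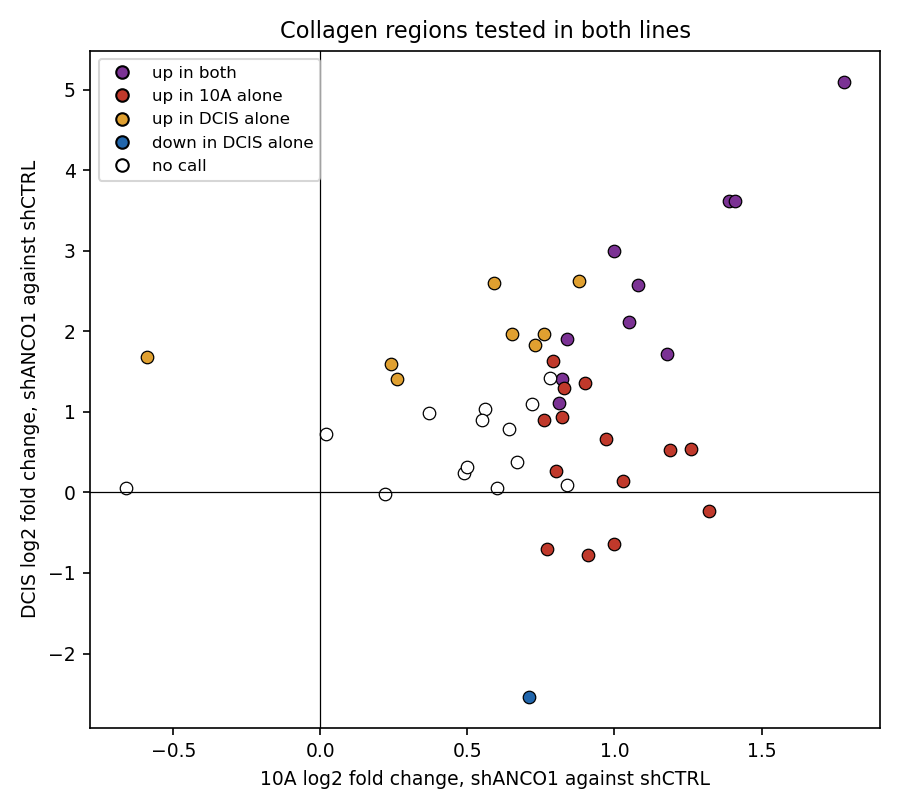
Log2 fold change of shANCO1 against shCTRL in 10A (horizontal axis) and DCIS (vertical axis) for the 47 collagen regions of 10A that overlap a DCIS region, each drawn with the DCIS region that shares the most bases. Colours give the calls at an FDR under 0.05. The point at the upper right is the COL8A1 intronic element (1.78 and 5.10), and the lowest point is COL28A1 (0.71 and -2.54).

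Genes that act on collagen were counted from lists of known function, with regions found by the same rule. Of 17 genes for chain modification and folding, 16 had a region in 10A and 15 of these had one that rose, with none down. The lowest FDRs were at P4HA1 (1.03, FDR 7.09e-06) and P4HA2 (1.80, FDR 7.38e-06), prolyl hydroxylase subunits, and P4HB (1.16, FDR 0.000174), their partner. The P4HB region lies beside the gene. In DCIS, 9 of 16 rose and 2 had a region that fell (P3H1 and P3H3, of the other prolyl hydroxylase family). P4HA1 and P4HA2 rose there too (1.86, FDR 0.0036, and 1.77, FDR 0.0244). The lowest FDRs in DCIS were at P3H4 (2.31, FDR 4.61e-05), PLOD2 (1.33, FDR 0.00025), a lysyl hydroxylase, and P3H2 (1.77, FDR 0.0004). The P3H4 region lies beside the gene. By region, 52.2% of 69 rose in 10A and 26.8% of 56 in DCIS, beside 43.6% and 23.6% of all regions.

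Of 14 genes for trimming and cross-linking outside the cell, 12 had a region in each line. In 10A, 9 rose and none fell, with the lowest FDRs at LOXL2 (1.58, FDR 1.68e-07), a lysyl oxidase that cross-links collagen, BMP1 (1.10, FDR 4.25e-05), which removes propeptides, and LOXL1 (1.58, FDR 0.00013). In DCIS, 5 rose and 2 fell. LOXL2 (4.03, FDR 3.57e-14), BMP1 (3.0, FDR 3.7e-07) and LOXL1 (1.87, FDR 0.000107) again had the lowest FDRs among those that rose. In each line the LOXL1 region lies beside the gene. The related oxidases LOX and LOXL4 each had a region that fell (-1.43, FDR 0.0321, and -2.02, FDR 0.00281). The LOX region is its promoter, and the LOXL4 region is 1 of 4 and lies beside the gene. The LOX promoter had risen in 10A (1.00, FDR 0.00191). By region, 51.8% of 56 rose in 10A and 32.6% of 46 in DCIS, beside 43.6% and 23.6% of all regions.

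Of 7 collagen receptors, 6 had a region in each line. All 6 rose in 10A, led by ITGB1 (1.12, FDR 5.84e-06), the integrin beta chain common to the collagen-binding integrins, ITGA2 (1.07, FDR 9.32e-05) and ITGA1 (1.15, FDR 0.000166). In DCIS 4 rose, led by ITGB1 (5.35, FDR 2.56e-10), ITGA2 (1.64, FDR 0.00158) and ITGA11 (1.45, FDR 0.00176), and ITGA10 had a region in each direction. By region, 56.9% of 51 rose in 10A and 54.3% of 35 in DCIS, beside 43.6% and 23.6% of all regions. In DCIS 16 of the 19 regions that rose lay at ITGB1 and ITGA2, and the other 4 receptors with a region had 3 of 17 up (17.6%), a split made after the values were seen. DDR1 had no region in either line.

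Promoters of cell type markers were checked for H3K27ac above input. Of 8 basal and epithelial markers, 6 were enriched in 10A shANCO1, 5 in 10A shCTRL and 6 in each DCIS group. KRT5, KRT6A, ITGB4 and LAMB3 were enriched in all 4 groups and KRT14 in none, CDH1 was not enriched in 10A, and TP63 not in DCIS. Of 9 fibroblast and other mesenchymal markers, 5 were enriched in 10A shANCO1 (PDGFRA, DCN, FAP, TWIST1 and TWIST2), 2 in 10A shCTRL (FAP and TWIST1), 2 in DCIS shANCO1 (PDGFRA and FAP) and 1 in DCIS shCTRL (FAP). The whole tables also hold more enriched regions in shANCO1 than in shCTRL (28607 and 15490 in 10A, 16692 and 15480 in DCIS). The share of all promoters enriched in each group was not counted beside these markers. Whether the marker numbers and the collagen gene numbers in shANCO1 are related was not tested. Of 3 endothelial and blood markers, PECAM1 was enriched in every group, and CDH5 and PTPRC in none.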

How the data were processed

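H3K27ac was measured by ChIP-seq in 24 libraries of 8 groups. Alignment by the authors was to GRCh38 (BWA, Rsubread). SAMtools dropped duplicate reads, csaw tested windows, and the windows were joined into annotated regions. The normalization, window filter and merging distance are not given in the sources used here. The deposited tables give per region the log2 fold change of 1 representative window, a p-value and FDR combined over its windows, and the numbers of windows tested, up and down. These are the authors' comparisons per region and were used because the tables hold no other values. No p-value was computed here.

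Collagen regions were found by symbol, and a region was called at an FDR under 0.05 in the direction deposited. Every gene with a call was named with its lowest-FDR region, the 10 genes of lowest FDR per line and every gene with a region down in full. Overlaps needed 1 shared base. Gene models came from GENCODE 44 and sequence from hg38, in 200-base windows. Python 3.11.15, pandas 2.3.3 and matplotlib 3.10.9 were used, and the counting was tested on simulated tables. The members, lists and rules were chosen with earlier results of these data known. Libraries could not be left out, and the alternatives tried changed the FDR, size, window number, annotation and summary.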

Additional observations from a re-analysis of the deposited data

How the results depend on the processing

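Of 54 alternative values, 41 stayed within 1.5 times the count or 0.1 log2 units of the median reported, no median changed sign, and no collagen region fell in 10A under any of them. At an FDR under 0.01, 28 regions rose in 10A and 4 fell in DCIS, and a distance of at least 1 log2 unit from the table median left 2 that rose in 10A. Requiring at least 5 windows left 4 that fell in DCIS and gave 21 enriched regions in 10A shANCO1, 5 in 10A shCTRL, 11 in DCIS shANCO1 and 7 in DCIS shCTRL. At an FDR under 1e-10, 8 were enriched in 10A shCTRL and 13 in DCIS shCTRL. The DCIS median was 0.69 with at least 5 windows, 0.98 over regions enriched in either group and 0.60 as a median over genes. Each uses fewer regions or a stricter threshold by construction, except the median over genes, for which the cause was not tested. Members by GENCODE gene bounds with 3 kb on each side, an alternative chosen after seeing the data, gave 36 regions up in 10A, and 18 up and 7 down in DCIS. No paired analysis was possible because the tables hold no value per library, and for the same reason no library could be left out and no depth is known.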
